A study of Homo sapiens with 12 samples.

Results

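The response of SLFN11 knockout cells to camptothecin was described from 6 of the 12 libraries of the series: the 3 whose titles name the knockout under camptothecin and the 3 whose titles name the knockout control. The cells were CCRF-CEM, an established human T lymphoblast leukemia line, carrying a knockout of the SLFN11 gene. Control cells received the solvent DMSO and treated cells 100 nM camptothecin for 4 h, and both groups grew in RPMI1640 with 10% serum. The other 6 libraries held the SLFN11-positive parent line under the same 2 treatments and entered only the tests of a difference between genotypes. Neither the method of the knockout nor whether the line is 1 clone is stated in the labels. They name no separate cultures either, and the p-values below therefore reflect library-to-library spread that could be technical.

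Camptothecin traps DNA topoisomerase I on DNA, where the trapped enzyme blocks moving replication forks and RNA polymerases. Cells answer such damage with checkpoint kinases that hold them back from mitosis, and the transcription of replication, mitotic and histone genes is tied to the cell cycle phase. SLFN11 is a nuclear protein that binds stalled replication forks and sensitizes cancer cells to drugs of this kind, and the question here was what the drug does to the transcriptome of cells in which the gene was targeted.

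SLFN11 itself (hg19 chr17:33677323-33700719) was still transcribed in the libraries labelled knockout. RNA reads do not measure the protein. Levels are exon reads scaled to library size and composition (CPM). On the scale of all 12 libraries, SLFN11 stood at 88.7, 86.1 and 85.9 CPM in the knockout controls and at 88.4, 91.7 and 89.4 CPM in the treated knockout libraries. The parent controls held 117, 107 and 112 CPM, all above the knockout libraries. The untreated knockout differed from the untreated parent by -0.36 ± 0.06 on the log2 scale (standard error, n = 3 libraries per group, edgeR adjusted p = 0.0072). Each intron read came with 1.63 to 1.97 exon reads in the 6 knockout libraries and with 3.37 to 4.3 in the 6 parent libraries. Within the knockout, the change of SLFN11 was 0.05 ± 0.04 (edgeR adjusted p = 0.4), and on library size alone 0.20 (edgeR adjusted p = 0.000743).

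The knockout libraries held 42439957 to 54642958 exon reads each. Introns took 28.65% to 29.7% of the reads in the controls and 30.35%, 30.48% and 33.55% under camptothecin, the last in camptothecin library 3. Both libraries numbered 3 stood apart from their groups. Control library 3 had 0.8% of exon reads on mitochondrial genes against 0.41% to 0.48% in the other 5. In camptothecin library 3, 116 of 10438 genes at 10 CPM or more lay over 1.5 times above both other treated libraries, which were within 1.2 times of each other. The same rule, set after the values were seen, found 0 to 4 such genes in each of the other 5 libraries. RNA polymerase II's largest subunit POLR2A, picked after its values were seen, read 51.8, 48.0 and 203 CPM in the 3 treated libraries. Results that rest on this library are given with and without it. Summed T cell markers ran from 1330 to 1430 CPM in the 6 libraries, with all 8 markers at 1 CPM or more, while summed myeloid markers stayed between 1.02 and 1.68 CPM. Other lineages were not all near 0. B-lineage markers summed to 49.8 to 55.8 CPM, with CD79A highest, and erythroid markers to 11.2 to 14.4 CPM, mostly EPOR. Epithelial and fibroblast markers summed to 1020 to 1100 CPM, nearly all of it VIM. In bulk RNA, fewer cells of a kind and less RNA per cell cannot be told apart.

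In 22077 genes with enough exon reads to test, camptothecin raised 2762 (12.5%) and lowered 3170 (14.4%) at an edgeR quasi-likelihood adjusted p below 0.05. Changes of at least 2-fold were rarer, with 184 genes higher (0.833%) and 277 lower (1.25%). The log2 values of the 2 groups did not overlap in 8938 genes (40.5%). With library size as the only scale, the split became 6251 higher and 1600 lower, so that 79.6% of calls were higher against 46.6%, and the median change of all genes was 0.17 in place of 0.02. Directions below are relative to the TMM scale, under which the median gene stands near 0. Exon counts of called list members on that scale are to be read beside the 12.5% higher and 14.4% lower of all genes. Described below are lower mitotic and replication-dependent histone genes, higher G1/S genes, lower exon reads of very long genes, and small changes in immediate early genes.

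**Figure D1:**
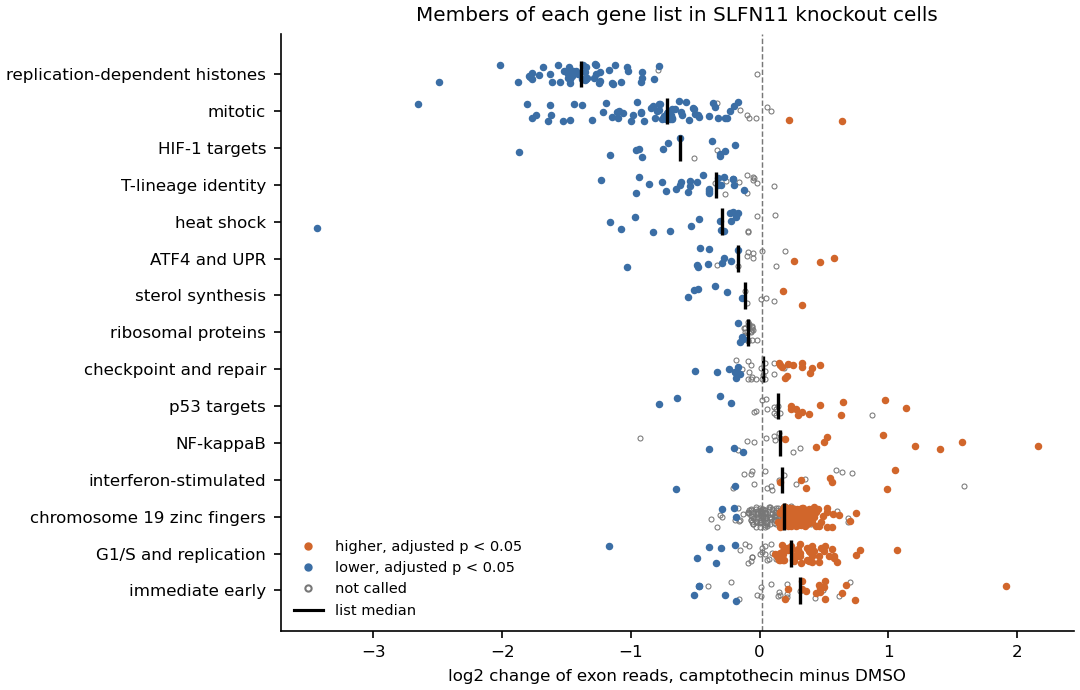
Log2 change of exon reads (camptothecin minus DMSO, 3 libraries each) for each tested member of 15 gene lists, with orange for called higher, blue for called lower, open grey for not called, a black bar at each list's median and a dashed line at the median of all genes. The histone and mitotic members lie mostly to the left, with medians of -1.39 and -0.72, and the G1/S members mostly to the right, with a median of 0.24.

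Promoter sequence is shown for 2 mitotic genes, PLK1 and CDC20, and 2 histone genes, because members of both groups moved together, and for the helicase gene PIF1, because it had the largest fall. Each line holds the 250 bases before the RefSeq transcription start (GRCh38.p14), 5′ to 3′ on the gene's strand. The windows are chr15:64825648-64825897 on the minus strand for PIF1, chr16:23678639-23678888 on the plus strand for PLK1, chr1:43358731-43358980 on the plus strand for CDC20, chr6:27814772-27815021 on the plus strand for HIST1H2BM (RefSeq H2BC14) and chr6:27865067-27865316 on the plus strand for HIST1H2AL (RefSeq H2AC16). Capitals in the first 3 mark TTTGAA or TTCGAA, the cell cycle genes homology region (CHR), and CCAAT, the box bound by NF-Y. Capitals in the last 2 mark ATTTGCAT, the octamer bound by OCT1, and CCAAT. In HIST1H2AL they also mark the E2F forms TTTCCCGC, TTTGGCGC, TTTCGCGC and TTTGCCGC. All marked motifs were searched on both strands. E2F forms were not marked in HIST1H2BM, whose window holds TTTCGCGC on the other strand in lower case.
PIF1: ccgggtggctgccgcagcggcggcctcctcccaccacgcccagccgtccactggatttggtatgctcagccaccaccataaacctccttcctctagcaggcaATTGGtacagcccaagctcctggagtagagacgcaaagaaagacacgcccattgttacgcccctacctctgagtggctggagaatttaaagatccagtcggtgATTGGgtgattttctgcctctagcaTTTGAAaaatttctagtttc
PLK1: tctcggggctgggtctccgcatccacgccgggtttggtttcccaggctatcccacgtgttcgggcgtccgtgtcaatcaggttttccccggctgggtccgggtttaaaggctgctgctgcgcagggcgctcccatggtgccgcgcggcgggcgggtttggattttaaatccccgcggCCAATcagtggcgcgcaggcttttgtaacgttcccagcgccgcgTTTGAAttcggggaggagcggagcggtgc
CDC20: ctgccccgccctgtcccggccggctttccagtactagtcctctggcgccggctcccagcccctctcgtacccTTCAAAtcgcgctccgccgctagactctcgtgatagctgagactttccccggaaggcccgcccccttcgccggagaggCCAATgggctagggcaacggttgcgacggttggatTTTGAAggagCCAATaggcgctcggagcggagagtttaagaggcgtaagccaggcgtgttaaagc
HIST1H2BM: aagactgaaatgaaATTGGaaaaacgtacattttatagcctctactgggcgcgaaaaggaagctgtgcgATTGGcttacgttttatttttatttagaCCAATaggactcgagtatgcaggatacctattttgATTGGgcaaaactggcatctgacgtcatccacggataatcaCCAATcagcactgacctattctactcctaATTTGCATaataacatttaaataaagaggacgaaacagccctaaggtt
HIST1H2AL: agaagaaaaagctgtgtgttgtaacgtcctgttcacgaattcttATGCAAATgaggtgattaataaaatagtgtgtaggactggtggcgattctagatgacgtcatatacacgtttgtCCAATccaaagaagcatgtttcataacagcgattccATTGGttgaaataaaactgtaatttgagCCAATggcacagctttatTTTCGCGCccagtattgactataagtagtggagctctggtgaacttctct

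PIF1 held 1 CHR match, 20 bases before the start, and 2 CCAAT matches. PLK1 held 1 CHR match, 29 bases before the start, and 1 CCAAT match. CDC20 held 2 CHR and 2 CCAAT matches. HIST1H2BM carried 5 CCAAT matches, 1 octamer and the unmarked E2F form TTTCGCGC on the other strand. HIST1H2AL carried 3 CCAAT matches, 1 octamer and 1 E2F match. Over the mitotic genes that fell, 52 of 62 had a RefSeq promoter under their own or an older symbol, and 29 of these (55.8%) held a CHR match, against 14.6% of all 27305 promoters. CCAAT was in 38 of the 52 (73.1%) and in 33.0% of all promoters, and an E2F form in 2 of the 52 (3.8%). Of the 44 promoters found for the 54 histone genes that fell, 37 (84.1%) held CCAAT, 19 the octamer, which 1.7% of all promoters held, 17 (38.6%) a CHR and 11 (25%) an E2F form. The octamer was in 10 of 12 H2A and 8 of 11 H2B promoters. Nearly all of the 19 were therefore H2A or H2B promoters, although H3, H4 and H1 genes fell as well. Among the 40 promoters found for the 50 G1/S genes that rose, 13 (32.5%) held an E2F form and 2 (5.0%) a CHR, against 2.8% and 14.6% of all promoters. CCAAT was in 21 of these 40 (52.5%), so it was above its share of 33.0% in rising genes too. The motifs were chosen with these results known, and a match describes letters in a window, not a bound site.

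Mitotic genes fell as a group. Of 71 tested members, 62 were called lower and 2 higher, beside 14.4% and 12.5% of all genes, with a median of -0.72 against 0.02 and 20 members at least 2-fold lower. With both libraries numbered 3 left out the counts were 63 and 3. All 20 genes of spindle motors and cytokinesis were called lower, as were 12 of 14 kinases and cyclins of mitotic entry and 9 of 10 genes of the spindle checkpoint and mitotic exit. 

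PLK1 (hg19 chr16:23688976-23701687), the polo kinase that drives mitotic entry, stood at 80.8, 84.2 and 77.4 CPM in the controls and at 12, 11.7 and 15.1 CPM under camptothecin. The groups lay far apart, a 6.25-fold fall of -2.65 ± 0.08 (standard error, n = 3 per group, edgeR adjusted p = 2.04e-11). HMMR, a spindle assembly factor, read 116, 112 and 111 CPM in the controls against 33.5, 32.9 and 30.1 CPM. Its fall was 3.51-fold. CDC20, the activator of the anaphase-promoting complex, went from 183 ± 4.29 to 54.6 ± 2.19 CPM (mean ± SD, n = 3 libraries each), 3.35-fold lower, with no overlap. KIF20A, a cytokinesis motor, was 3.13-fold lower and PSRC1, a spindle protein, 3.41-fold lower. The 2 members called higher were PKMYT1, the kinase that inhibits CDK1, at 79.1, 76.8 and 83.0 CPM in the controls against 128, 125 and 119 CPM, and SKA1, a kinetochore protein, at 0.23 ± 0.07 (edgeR adjusted p = 0.0203). The SKA1 call was lost when any 1 library other than camptothecin library 3 was left out, with adjusted p from 0.0515 to 0.128.

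Camptothecin library 3 decided the value of 1 well-known member. MKI67, the Ki-67 proliferation antigen, read 610, 638 and 613 CPM in the controls and 373, 365 and 748 CPM under camptothecin. The first 2 treated libraries lay below every control and camptothecin library 3 above, and the change of -0.33 ± 0.34 was not called (edgeR adjusted p = 0.582). Without camptothecin library 3 it was -0.75 (edgeR adjusted p = 3.57e-29).

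PIF1 (hg19 chr15:65107830-65117866), a helicase that unwinds G-quadruplex DNA and acts at telomeres and replication forks, had the largest fall of any gene at 1 CPM or more without overlap. Its 3 controls read 18.7, 20.7 and 23.1 CPM and its treated libraries 1.85, 1.78 and 1.64 CPM, an 11.9-fold fall of -3.57 ± 0.11 (edgeR adjusted p = 2.5e-14). Its intron reads fell by 3.89 on the log2 scale. Of the 11 helicases tested, 3 were called lower and 0 higher, the others in that list being ZRANB3 at -0.85 and HLTF at -0.27. Without camptothecin library 3, 3 helicases were called higher.

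**Figure D2:**
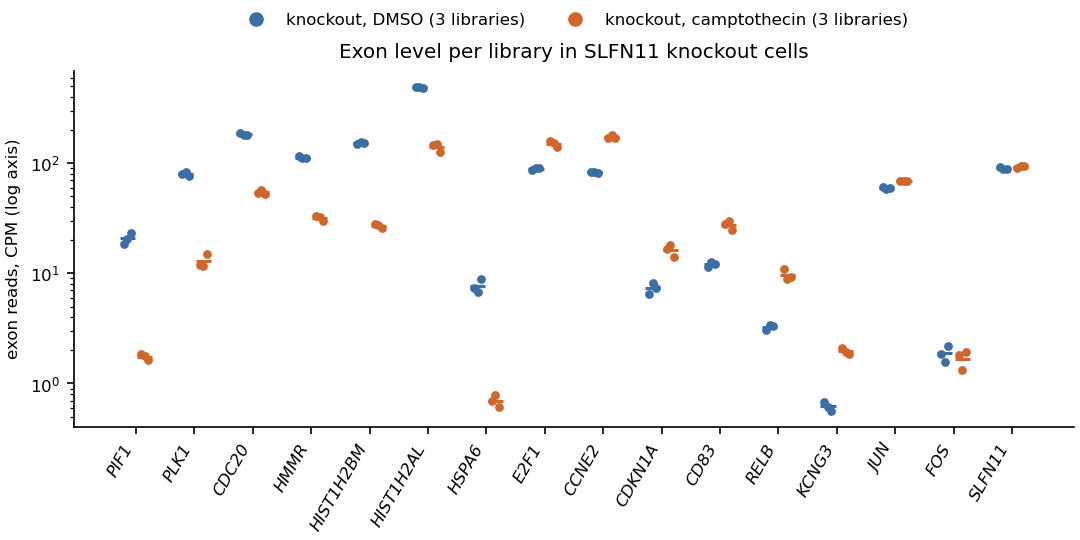
Exon level in CPM (log axis) of 16 genes in each of the 3 DMSO (blue) and 3 camptothecin (orange) knockout libraries, with bars at the group means. The largest gaps are those of PIF1, 11.9-fold, and HSPA6, 11-fold, while FOS and SLFN11 overlap between the groups.

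Replication-dependent histone genes, which supply nucleosomes during S phase and mostly lack introns and poly(A) tails, fell almost without exception. Of 59 listed genes 56 were tested, and 54 were called lower, 49 of them at least 2-fold, with a median of -1.39. All 13 H2A, 16 H2B and 4 H1 genes were called lower, with 10 of 11 H3 and 11 of 12 H4 genes. HIST1H2BM (hg19 chr6:27782821-27783266) read 149, 156 and 153 CPM in the controls and 28.1, 27.3 and 25.9 CPM under camptothecin, 5.63-fold lower (-2.49 ± 0.05, edgeR adjusted p = 5.01e-17). HIST1H2AL went from 492, 491 and 487 CPM to 147, 151 and 126 CPM. Summed over the 56 genes, histone reads made up 4.25%, 4.18% and 4.27% of scaled exon reads in the controls and 1.71%, 1.71% and 1.51% under camptothecin. The members not called were HIST1H3E at -0.02 and HIST1H4F at -0.79. Histone genes share near-identical stretches, so the split of reads among members is uncertain, and whether the libraries were selected for poly(A) is not given in the sources used here.

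Replication-independent histones moved less. Of 12 tested, 7 were called lower and 0 higher, with a median of -0.21. CENPA, the centromeric H3 variant, fell 2.6-fold and H1F0 1.78-fold. The factors that make and process histone mRNA showed no shared direction, with 5 of 19 called higher and 4 lower, and 7 lower without camptothecin library 3. SLBP, which binds the histone mRNA stem-loop, was among the higher, at 85.9, 84.1 and 81.7 CPM in the controls against 124, 137 and 121 CPM (0.60 ± 0.05, edgeR adjusted p = 1.86e-08). CASP8AP2, a histone locus body protein, was higher by 0.31 and LSM11, a U7 snRNP subunit, by 0.34.

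Genes of the G1/S transition and DNA replication rose together. Of 75 tested, 50 were called higher and 6 lower, with a median of 0.24, and without both libraries numbered 3 the counts were 52 and 10. The rises were small, with 1 member past 2-fold. Called higher were 17 of 21 origin licensing and firing genes, 10 of 14 cyclins and factors, 15 of 22 fork and clamp genes and 4 of 10 nucleotide supply genes. CCNE2, a cyclin E, read 82.9, 83.0 and 82.2 CPM in the controls and 168, 183 and 171 CPM under camptothecin, 2.1-fold higher (1.07 ± 0.04, edgeR adjusted p = 6.48e-13). E2F1, a factor that drives these genes, went from 87.2, 91.1 and 90.3 CPM to 159, 152 and 142 CPM. CCNE1 rose 1.72-fold, PCNA, the replication clamp, 1.52-fold and the licensing factor CDC6 1.49-fold. The treated libraries lay above all controls for each of these 5. CDK6, the G1 kinase, was the largest fall of the list, from 1808, 1844 and 1771 CPM to 764, 775 and 870 CPM, and POLA1, a catalytic subunit of primase-polymerase alpha, fell 1.41-fold. Those 2 genes span 232 and 303 kb, and their introns changed by 0.17 (not called) and 0.44 (called higher).

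Checkpoint and repair genes had no common direction. Of 38 tested, 12 were called higher and 8 lower, beside 12.5% and 14.4% of all genes, with a median of 0.02. The nuclease EXO1 rose 1.39-fold, and CLSPN, the claspin adaptor of CHK1, 1.32-fold. ATM, the apical double-strand break kinase, fell 1.41-fold and CHEK2 1.25-fold. Among 16 genes that repair trapped topoisomerase I and single-strand breaks, 5 were called higher and 2 lower, and among 6 topoisomerases 1 was called higher and 2 lower. FEN1, the flap nuclease, rose 1.47-fold. TDP1, which removes the trapped enzyme from DNA, fell from 63.3, 65.5 and 61.4 CPM to 48.1, 46.2 and 42.7 CPM, and both type II topoisomerases fell, TOP2A 1.97-fold and TOP2B 1.34-fold.

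TOP1, the drug's target (hg19 chr20:39657457-39753126), read 88.4, 96.1 and 86.9 CPM in the controls and 70.9, 64.2 and 132 CPM under camptothecin. The first 2 treated libraries lay below every control and camptothecin library 3 above. The change over all 6 was -0.02 ± 0.33 (edgeR adjusted p = 0.969), and without that library -0.42 (edgeR adjusted p = 8.5e-09). Exon reads in stretches that no other gene overlaps gave -0.33 for TOP1 (edgeR adjusted p = 0.0204).

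Immediate early genes, the first genes transcribed after growth signals or stress, showed mostly small changes in knockout cells. Of 41 tested, 16 were called higher and 5 lower, beside 12.5% and 14.4% of all genes, with a median of 0.31. On library size alone 24 were called higher, and 3 were lower without control library 1 or control library 3. Only 1 rise passed 2-fold, TRIB1, at under 1 CPM in every library, whose call was lost without control library 1, control library 3 or camptothecin library 3. FOS, an AP-1 subunit, read 1.85, 1.57 and 2.21 CPM in the controls and 1.81, 1.33 and 1.92 CPM under camptothecin, and the groups overlapped. JUN, its partner, went from 61.2, 58.9 and 60.1 CPM to 68.8, 69.2 and 68.6 CPM, a called rise of 0.20 ± 0.04 (edgeR adjusted p = 0.0024), which was not called on reads over the whole gene (0.15, edgeR adjusted p = 0.0553). EGR1, a zinc finger factor, gave 0.50 ± 0.19 (edgeR adjusted p = 0.0585) and ATF3, a stress-induced repressor, 0.21 ± 0.08 (edgeR adjusted p = 0.0512). Both were called higher on library size alone (edgeR adjusted p = 0.0124 and 0.0012) and with all 12 libraries (edgeR adjusted p = 0.0257 and 0.0383). ATF3 was also called without camptothecin library 3 (0.23, edgeR adjusted p = 0.0255) and on exon reads that no other gene overlaps (0.21, edgeR adjusted p = 0.0391). IER2 gave -0.18 ± 0.05 (edgeR adjusted p = 0.0176), and its call was lost without control library 1 or control library 3. The MAP kinase phosphatase DUSP4 was higher by 0.74, the receptor NR4A1 by 0.64 and the G protein regulator RGS16 by 0.67, while DUSP6 and KLF6 each fell by 0.47.

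The parent cells offer the comparison for this list. In the test of the difference itself, knockout minus parent, 1053 of 23546 genes (4.47%) were lower and 434 (1.84%) higher, 6.32% together. Among the 41 immediate early genes with a test in both fits, 33 were lower and 1 higher, KLF2. In the parent, where 33.9% of all genes were called, 36 of the 41 were called higher, with a median of 1.95. FOS differed by -3.71, JUN by -3.67, EGR1 by -3.33 and ATF3 by -3.15 on the log2 scale. Of the histone genes, 54 of 56 were lower in the knockout response, with a parent median of 0.20. For mitotic genes 4 of 71 differed, all lower, with a parent median of -0.69. Leaving out parent control library 1, which had 135592046 exon reads against 48632116 to 63606344 in the other 5 parent libraries, raised that 4 to 31. Without it 36 of 44 immediate early and 55 of 58 histone genes were lower.

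**Figure D3:**
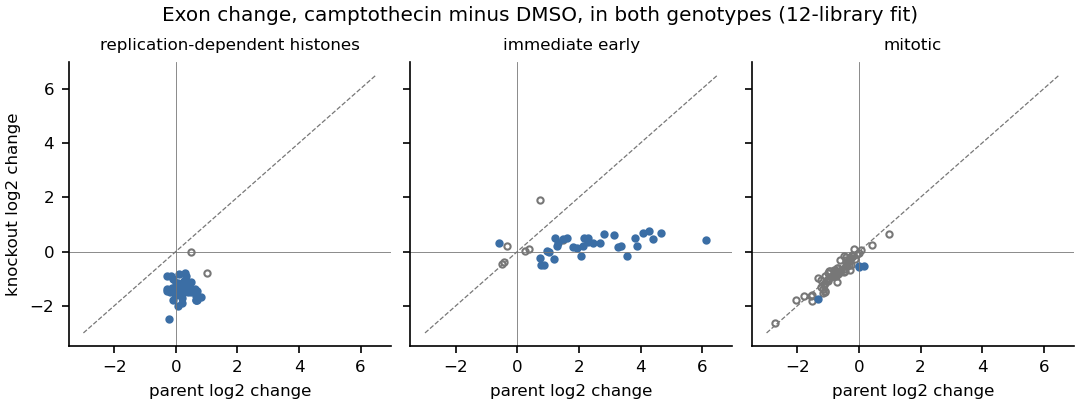
Log2 change of exon reads under camptothecin in knockout (vertical) against parent cells (horizontal), from the fit to all 12 libraries, for tested replication-dependent histone, immediate early and mitotic genes, with filled points where the difference was called and a dashed line of equal change. Histone points lie below the line around a parent median of 0.20, immediate early points spread to the right along a knockout change near 0, and mitotic points follow the line.

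NF-kappaB genes were raised in part. Of 23 tested, 9 were called higher and 3 lower, beside 12.5% and 14.4% of all genes, with 4 rises past 2-fold. RELB, a subunit of the alternative pathway, read 3.06, 3.43 and 3.31 CPM in the controls and 10.9, 8.91 and 9.36 CPM under camptothecin, 2.98-fold higher (1.57 ± 0.12, edgeR adjusted p = 6.5e-09). NFKB2, its partner's precursor, went from 17, 14.8 and 15.5 CPM to 32.5, 29.3 and 30.3 CPM. CD83, a surface protein, rose 2.3-fold and F3, tissue factor, 2.64-fold, and for these 2 no difference from the parent was called (-0.05 and 0.00). Over the list 13 of 23 were lower in the knockout than in the parent, where the median was 1.25, RELB by -2.60 and NFKB2 by -2.05 among them. IL8, at under 1 CPM in every library, was called higher, and its call was lost without camptothecin library 1. NFKB1 was lower by 0.39, which was not called on reads over the whole gene (-0.18, edgeR adjusted p = 0.0997).

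Among the genes listed here as p53 targets, 11 of 27 were called higher and 4 lower, beside 12.5% and 14.4% of all genes. CDKN1A, the p21 inhibitor of cyclin-dependent kinases, read 6.52, 8.2 and 7.3 CPM in the controls and 16.5, 18.1 and 14.0 CPM under camptothecin, 2.21-fold higher (1.14 ± 0.11, edgeR adjusted p = 1.74e-07). TP53INP1 rose by 0.63, and PHLDA3 by 0.97, a call lost without control library 1, control library 3 or camptothecin library 1, while GTSE1 fell by 0.78 and CCNG2 by 0.64. In the BCL2 family, 5 of 18 were called higher and 3 lower, with 3 higher when control library 1 or 2 or camptothecin library 1 or 2 was left out. The cell death genes BMF and BCL2L11 rose 3.15-fold and 1.85-fold. BMF stood at only 0.423, 0.469 and 0.606 CPM in the controls and 1.13, 1.82 and 1.77 CPM under camptothecin. BBC3 (PUMA) gave 0.65 (edgeR adjusted p = 0.0473), a call lost with DESeq2 (adjusted p = 0.0525) and without control library 1 or 2 or camptothecin library 1 or 2.

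Interferon-stimulated genes included 7 of 26 called higher and 2 lower, beside 12.5% and 14.4% of all genes. The 2 lower calls were both lost without control library 1, control library 3 or camptothecin library 1, and 1 of them without control library 2 or camptothecin library 2. Among those that rose were IRF7, 1.98-fold, IFIT2, 2.08-fold, and MX1, 1.46-fold. In the JAK-STAT list 7 of 22 were called higher (4 without camptothecin library 1) and 4 lower, with PIM1 1.6-fold higher and STAT5B 1.5-fold lower. IL6ST, the gp130 receptor chain, had the largest called rise, from 0.644, 0.775 and 0.39 CPM to 2.12, 1.78 and 1.97 CPM. That rise of 1.69 was not seen on reads over the whole gene (0.01, edgeR adjusted p = 0.915). KCNG3, a potassium channel subunit, rose 3.17-fold at a similar level. FGFR3, a growth factor receptor, rose 2.52-fold, from 2.58, 3.02 and 2.75 CPM to 6.79, 8.26 and 5.99 CPM.

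Heat shock genes fell. Of 20 tested, 16 were called lower and 0 higher, with a median of -0.29 (10 lower on library size alone). HSPA6, a strictly inducible HSP70, went from 7.40, 6.79 and 8.81 CPM to 0.699, 0.786 and 0.612 CPM, 11-fold lower (-3.44 ± 0.17, edgeR adjusted p = 1.11e-11). HSPA1A fell 2.11-fold, HSPA1B 2.24-fold and the co-chaperone DNAJB1 1.96-fold. HSPA1A and HSPA1B are near-identical copies, so the split of reads between them is uncertain. Genes of the ATF4 and unfolded protein responses had 10 of 22 called lower and 3 higher, with the mTORC1 inhibitor DDIT4 2.05-fold lower and the chaperone HSP90B1 1.41-fold lower. Targets of the hypoxia factor HIF-1 had 13 of 15 called lower and 0 higher, with a median of -0.62. The peptide hormone ADM fell 3.64-fold, VEGFA from 26.1, 23.9 and 26.4 CPM to 11.7, 10.6 and 11.98 CPM, and the mitophagy receptor BNIP3 1.87-fold.

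T-lineage identity genes fell in part, with 25 of 36 called lower and 0 higher and a median of -0.33. Without both libraries numbered 3 the count was 31. DNTT, the terminal transferase of receptor rearrangement, read 82.0, 88.8 and 84.7 CPM in the controls and 44.4, 44.6 and 42.8 CPM under camptothecin. LEF1 fell 1.91-fold, IKZF1 (Ikaros) 1.81-fold and the thymocyte surface protein CD1A 1.69-fold. GATA3 read 23.1, 22.9 and 23.8 CPM in the controls and 15.95, 15.4 and 23.4 CPM under camptothecin, and RUNX1 was also highest among treated libraries in camptothecin library 3. The change of GATA3 was not called over all libraries (-0.35, edgeR adjusted p = 0.192) and was called without camptothecin library 3 (-0.57, edgeR adjusted p = 2.59e-09). For RUNX1 the 2 values were -0.26 (edgeR adjusted p = 0.476) and -0.51 (edgeR adjusted p = 3.21e-16). Among Notch genes, HES4 rose 1.57-fold and HES1 fell 1.66-fold, and the other 11 were not called, although 3 were lower without camptothecin library 3 and 2 without camptothecin library 2. Of the 8 T cell markers 3 were called lower, 6 without camptothecin library 3 and 1 on library size alone, and their part in these results was not tested.

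Of 243 zinc finger genes on chromosome 19 that were tested, 97 were called higher and 3 lower, with a median of 0.19. On library size alone 163 were called higher, without control library 3 63, with all 12 libraries 60 and on reads over the whole gene 62. ZNF527 rose 1.69-fold, from 8.97, 7.63 and 7.88 CPM to 15.5, 12.2 and 13.7 CPM. Their introns moved less, with 14 of 238 called higher and 8 lower. In the test of the difference of responses 59 of the 243 were lower in the knockout and 0 higher, with a parent median of 0.47. Without parent control library 1, 126 of 246 were lower.

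Other lists moved little. Their counts stand beside 12.5% of all genes called higher and 14.4% called lower. Elongation control genes had 5 of 16 called higher and 0 lower, and 3 higher without control library 2, control library 3 or camptothecin library 1. The higher ones included HEXIM1, an inhibitor of P-TEFb, by 0.32 and MEPCE, a 7SK capping enzyme, by 0.29. Splicing factors had 1 of 16 called higher, SRSF6, and 5 lower, CLK1 among them, with 3 higher without camptothecin library 3 and 2 without camptothecin library 2. Of 25 ribosomal protein genes 4 were called lower and 0 higher at a median of -0.09. That median turned to 0.05 on library size alone, and the count ran from 0 without any 1 control library to 8 without camptothecin library 3 and 11 without both libraries numbered 3. Of 13 mitochondrially encoded protein genes 2 were called lower, MT-CO2 and MT-CO3, and 0 higher, beside 14.4% of all genes called lower. The median of this list was 0.14, and -0.01 without both libraries numbered 3. Without camptothecin library 3 the calls were 4 lower and 1 higher, and without control library 2 there was 1 lower. On library size alone and with all 12 libraries 0 were lower. In the schlafen family, SLFN5 fell by 0.22, alone among 4 tested, and this was not called on library size alone (edgeR adjusted p = 0.288).

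Intron reads, taken as a measure of unspliced RNA, were tested in 18944 genes, of which 1818 (9.6%) were called higher and 2144 (11.3%) lower. They were concentrated in a few genes. Over all 12 libraries RPS29 held 22915670 intron reads and ANKRD28 7843461, against 982074 in the next gene. These reads count in the intron shares given above, and whether they come from unspliced RNA was not tested. Among the genes tested in both, 41.8% of those with lower exon reads had lower intron reads, and 59.3% of those with lower intron reads had lower exon reads. For higher genes the shares were 27.9% and 39.8%. Across 16557 genes, Spearman's rho between both changes was 0.53, as a description of genes that share libraries. Mitotic introns followed their exons, 60 of 71 lower and 3 higher with a median of -0.61, and G1/S introns did so with 38 of 75 higher and 3 lower. PLK1 introns fell by 2.08 and CCNE2 introns rose by 1.04. RELB introns rose by 1.45, CD83 introns by 1.04 and BCL2L11 introns by 1.05.

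**Figure D4:**
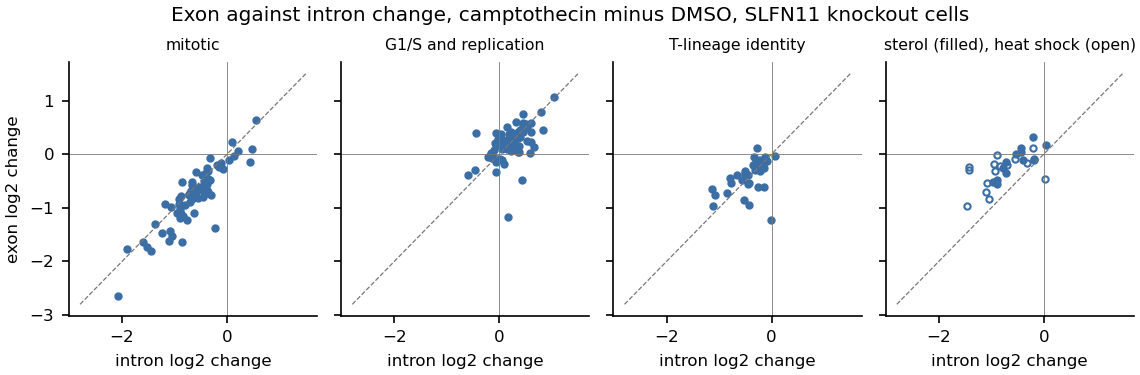
Log2 change of exon reads (vertical) against intron reads (horizontal), camptothecin minus DMSO, for list members tested in both, with a dashed line of equal change. G1/S members scatter around the line, and mitotic members lie around it or somewhat below, with a median exon minus intron change of -0.14. T-lineage members lie below 0 on both axes for the most part. Sterol synthesis (filled) and heat shock (open) members lie mostly above the line, with introns falling by a median of 0.53 and 0.91.

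Exon and intron changes were then compared within genes. Of 16557 genes, 667 (4.03%) had a higher and 1365 (8.24%) a lower exon change than intron change. Of the mitotic genes 17 of 71 were on the lower side and 0 on the higher, 6 of 12 kinetochore genes among them, and of the G1/S genes 11 of 75 were on the lower and 8 on the higher side. Sterol synthesis genes stood on the higher side in 11 of 13 cases. Their introns fell in 10 of 13, with a median of -0.53, while their exon median was -0.11 and turned to 0.04 on library size alone. HMGCS1, a synthase early in the pathway, had an intron change of -0.97 and an exon change of -0.51. Heat shock genes had the same pattern in 10 of 16, with 13 of 16 introns lower at a median of -0.91. HSP90AA1 introns fell by 1.42 and its exons by 0.23, a difference of 1.19 (edgeR adjusted p = 4.5e-09). Its exon fall was not called on library size alone (-0.08, edgeR adjusted p = 0.268) or with all 12 libraries (-0.24, edgeR adjusted p = 0.16). XBP1 had -1.02 and -0.40, and the HIF-1 list 7 of 14 genes with a higher exon change.

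The lower side was made up mainly of long genes. By length from first to last annotated base, exon medians were 0.05 under 10 kb, 0.07 from 10 to 30 kb, 0.00 from 30 to 100 kb, -0.14 from 100 to 300 kb and -0.51 at 300 kb or more. Parent exon medians, from the fit to all 12 libraries, were -0.23 from 100 to 300 kb and -0.76 at 300 kb or more. In the longest class 252 of 441 genes (57.1%) were called lower in the knockout and 9 (2.0%) higher. Those counts were 222 and 25 on library size alone, where the median was -0.36, and the class from 100 to 300 kb turned to 0.01. Intron medians were -0.02, 0.00, 0.01, 0.06 and 0.01 in the same order, and at 300 kb or more 103 of 815 introns were called higher and 85 lower. Without both libraries numbered 3 those were 90 and 174, with a median of -0.06. The exon change was lower than the intron change in 254 of 440 genes of the longest class (57.7%) and in 24 of 4259 (0.6%) of the shortest. Intron reads pool the whole gene body, so a change at 1 end cannot be told from them.

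PLCB1, a phospholipase C gene of 836 kb (hg19 chr20:8112823-8949002), shows this pattern. Its exon reads went from 62.9, 65.6 and 62.4 CPM to 14.9, 16.7 and 17.5 CPM, 3.9-fold lower (-1.96 ± 0.06, edgeR adjusted p = 2.5e-14). Its introns changed by -0.13 (edgeR adjusted p = 0.288), and by -0.23, called lower, without camptothecin library 3 (edgeR adjusted p = 5.54e-12). On reads over the whole gene, which are mostly intronic, PLCB1 changed by -0.19 (edgeR adjusted p = 0.134). TCF12, a bHLH factor of thymocytes that spans 381 kb, fell from 193, 194 and 196 CPM to 77.1, 85.1 and 85.7 CPM with introns at -0.01. LPP, an adhesion protein gene of 737 kb, fell 3.2-fold with introns at -0.06 (-0.19, called lower, without camptothecin library 3). AKAP6, NEGR1, THSD7A and KCNQ5, of 462 to 887 kb, fell 3.18-fold, 2.7-fold, 2.83-fold and 2.59-fold. Their introns changed by 0.16, 0.33, 0.26 and 0.34, and those of NEGR1 and KCNQ5 were called higher.

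**Figure D5:**
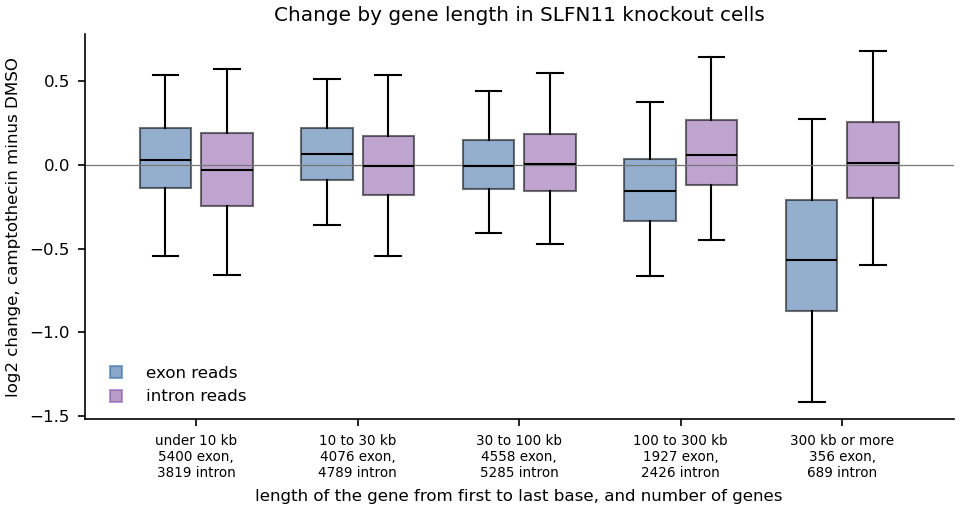
Log2 change, camptothecin minus DMSO, of exon (blue) and intron (purple) reads by gene length, for genes at 1 CPM or more, with boxes from the first to the third quartile, a line at the median and whiskers from the 5th to the 95th percentile. The exon box of genes of 300 kb or more lies below 0 with a median of -0.57, while the intron medians stay between -0.03 and 0.06.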

How the data were processed

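RNA was sequenced from CCRF-CEM cells; per the labels' protocols, RNA was purified with DNase, integrity numbers were above 8.0, and pooled libraries went through 1 HiSeq4000 run. The deposited tables give whole-number read counts per gene, exon and intron, which the authors did not normalize, per the file headers. Per the submitters' processing notes the build was hg19, and STAR 2.5.4a, Picard 2.9.2, Trimmomatic 0.39 and Trim Galore 0.6.2 were used in roles not recorded there. File names mark duplicate removal, which can compress abundant short transcripts. How reads were counted, with which annotation and strand setting, and how libraries were selected is not given in the sources used here. Reads in stretches where genes overlap cannot be told apart, and the unique reads used as an alternative leave such stretches out. Genes absent from 1 table were set to 0.

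Exon counts and, separately, intron counts of the 6 knockout libraries were tested with edgeR 4.0.16 (R 4.3.3): filterByExpr, TMM scaling and a robust quasi-likelihood fit with a mean per group. The threshold was 0.05 after Benjamini-Hochberg adjustment. The exon change minus the intron change was an interaction term with library as a block, and the difference of responses an interaction in all 12 libraries. The biological coefficient of variation was 7.9% for exon and 9.0% for intron reads. Standard errors are the unshrunk log2 change over the square root of F and restate the test. Levels are CPM on the TMM scale, with a prior count of 2 for logs. Code was tested on simulated counts.

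Named genes were the 15 largest called rises and falls in exon reads at a mean of at least 1 CPM without overlap, 8 each for introns, 6 each for exon minus intron, up to 5 per list and direction, and SLFN11, FOS, JUN, EGR1, ATF3, IER2, PIF1, PLK1, CCNE2 and TOP1, of which those the text turns on are printed. MKI67, GATA3, RUNX1, POLR2A, KLF2, HIST1H3E and HIST1H4F were picked after their values were seen. Genes and lists were chosen with earlier results of these data known. Same-numbered control and treated libraries had correlations of -0.019 to -0.003 between their deviations, so numbers were not taken as pairs. Pairs of libraries within a group differed by 5.09 to 19.2 in chi-square per degree of freedom, so none were duplicates. Alternatives were DESeq2 1.42.0, library size alone, no filter, total and unique reads, all 12 libraries, a replicate block and leaving out libraries. Promoters came from RefSeq (GRCh38.p14). 1 item is not reported here.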

Additional observations from a re-analysis of the deposited data

Results flagged for a closer look

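The following genes had a camptothecin response in knockout cells that differed from that of parent cells in the interaction test of all 12 libraries (edgeR adjusted p below 0.05). Values are the knockout minus the parent log2 change. Among immediate early genes, FOS differed by -3.71, JUN by -3.67, EGR1 by -3.33, ATF3 by -3.15, DUSP4 by -3.52 and IER2 by -2.23. RELB differed by -2.60 and NFKB2 by -2.05 among NF-kappaB genes, and CDKN1A by -2.42 among p53 target genes. The histone genes HIST1H2BM, HIST1H2BF, HIST1H2BB and HIST1H2AL differed by -2.27, -2.09, -2.09 and -2.46. CCNE2 rose more in the knockout, by 0.56, and CDC20 fell more, by -0.41. HSPA6 fell more in the knockout (-1.04), while HSPA1A fell less (1.21). HEXIM1 rose less in the knockout, by -1.36. Groups of 3 libraries are too small for a test of single outlying samples.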

How the results depend on the processing

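On library size alone the exon counts became 6251 higher and 1600 lower, the intron counts 3150 higher and 1340 lower, the genes with a higher exon than intron change 1041, and the genes with a higher (more positive) log2 change in the knockout than in the parent 860. Fitting all 12 libraries gave 1718 genes higher in exon reads, and scaling introns by the exon reads gave 914 lower. Genes with such a higher change numbered 817 with DESeq2 and 778 without a filter. Reads over the whole gene turned the exon change of POLA1 to 0.03, of NEGR1 to 0.28, of THSD7A to 0.01 and of KCNQ5 to 0.34, since those reads include introns. Leaving out 1 library at a time gave 1854 to 3353 genes higher and 2484 to 3995 lower in exon reads, 1051 to 2402 higher and 1385 to 3008 lower in intron reads, 335 to 686 higher and 910 to 1405 lower for exon minus intron, and 179 to 1241 higher and 720 to 2262 lower for the difference of responses. The intron lows and the exon minus intron lows came without a knockout control, and 1241 and 2262 without parent control library 1. Each of the other fits without 1 library of a treated or knockout control group moved the 434 genes with a higher change in the knockout to between 179 and 260, apart from knockout camptothecin library 3 (422). With both libraries numbered 3 left out, an alternative added after seeing the data, exon calls were 3104 higher and 3777 lower and intron calls 2177 and 2815. The replicate block, with the library number as a term, gave 2507 higher and 3001 lower in exon reads and 1630 and 1910 in introns, 528 and 1232 for exon minus intron, and 368 and 980 for the difference of responses, and of the genes named it ended the calls of SOCS3 and of SERPINH1 (exon minus intron) and added GATA3. Of the exon values of named genes under these alternatives, 4 were reversed, 64 lost their call, 21 gained one and 1946 did neither. Depth limits genes near 1 CPM most, and 3 libraries per group limit every test.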

Other observations

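Small nucleolar RNA host genes, long noncoding genes whose introns carry snoRNAs, had 1 of 11 called higher and 3 lower in knockout cells, with a median of -0.08. The higher count was 3 without camptothecin library 3 and 0 without camptothecin library 1, and on library size alone 4 were higher and 0 lower. In the parent, 9 of these 11 were called higher with a median of 0.46, and in the test of the difference of responses 8 of 11 were lower in the knockout. Elongation control genes had 6 of 16 lower in that test and 0 higher, with a parent median of 0.35. In the network of MYC and its partners, 3 of 11 genes were called higher and 3 lower in knockout cells, with a median of 0.01. The lower count was 1 without any 1 control library or without camptothecin library 2, with all 12 libraries and with the replicate block.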
